A study of Mus musculus with 24 samples.

Results

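The matrix proteases and their inhibitors were the rows of the deposited table whose symbol begins with Mmp, Timp, Adam or Adamts followed directly by a digit. They numbered 78 of 23235 rows: 23 Mmp, 32 Adam, 19 Adamts and 4 Timp genes. Averaged over the 8 columns, 17 of them reached 1 FPKM, 5 Mmp, 6 Adam, 3 Adamts and 3 Timp genes; these are called expressed below, and all 17 also average over 1 FPKM without the fusion columns. The data came from T11, an established mouse mammary tumour line of claudin-low type; the labels state that the cells express a luciferase gene, which all groups share. Cells received PBS, Omomyc, FPP-1746 or the fusion FPP-1746-Omomyc for 3 h or for 6 h, and the peptides were given at 5 µM. Each of these 8 groups had 3 biological replicates. Omomyc is a mutant MYC dimerisation domain that competes for MAX, and FPP-1746 is the cell-penetrating peptide that carries it in the fusion. The table holds the mean of each group as 1 column, in FPKM, a fragment number scaled to transcript length and library size. No spread between replicates can be seen, so no p-value is given and no difference below has a replicate check.

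Matrix metalloproteinases (MMPs) are zinc enzymes that cut collagens and other matrix proteins, some of them secreted and some anchored in the plasma membrane. ADAM proteins are membrane-bound relatives, several of which shed growth factors, cytokines and receptors from the cell surface. ADAMTS proteins are secreted, bind matrix through thrombospondin-type repeats, and include proteoglycan-cutting aggrecanases and procollagen-trimming enzymes. Tissue inhibitors of metalloproteinases (TIMPs) occupy the active site of these enzymes and hold them in check. In mammary tumours much of this system is made by mesenchymal cells.

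The label of the line was checked against markers. Vim, which encodes the mesenchymal filament protein vimentin, lay between 3302 and 5128 FPKM. Of 6 mesenchymal markers, Vim among them, 1 was at least 2-fold higher in the fusion than in PBS at 3 h, Twist1 (22.0 and 89.9 FPKM), and 2 at 6 h, Zeb2 (8.88 and 19.8 FPKM) and Snai2 (5.63 and 13.4 FPKM). None was lower by that rule. Of all 10262 genes averaging 1 FPKM or more, 6.13% were higher at 3 h and 7.13% at 6 h. The median log2 ratios of the markers were 0.53 and 0.72, beside 0.00 and -0.03 over all these genes. The part of the markers in the results was not tested. Epcam and Cldn3, which mark epithelial cells and are low in claudin-low tumours, were listed at 0 in all 8 columns, and Cldn4, Cldn7 and Cdh1 did not pass 0.0696 FPKM. The table holds 7 macrophage markers, of which 5 were at or near 0, Emr1 at 0 everywhere and Csf1r, Ptprc, Lyz2 and Itgam at no more than 0.0523 FPKM. The other two were Cd14 and Cd68, and the summed macrophage list was 81.0 and 121 FPKM in the fusion columns against 11.2 to 25.8 FPKM elsewhere, almost all of it Cd14; its part in the results was not tested. The neutrophil list summed to at most 0.365 FPKM, the endothelial list to at most 0.182 FPKM and the epithelial list to at most 0.197 FPKM. The adipocyte list lay between 1.67 and 2.76 FPKM, nearly all of it Fabp4. Columns summed to 445657 to 594951 FPKM, highest in the fusion at 3 h. From the step between low values, 1 FPKM on a transcript of 2000 bases was about 66.9 to 106 fragments in 7 columns. The step was taken as the main peak of 45 to 61 low values per column, and its presence was not tested. Each column averages 3 replicates, so this is not the depth of a single library. In the column of FPP-1746 at 6 h no clear step was found.

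Between the fusion and PBS 4 of the 17 genes passed 2-fold at either time, and they lay in 3 families. Adamts1 was 12.5-fold higher than in PBS at 3 h and 5.52-fold higher at 6 h, on the scale of FPKM + 1. Adamts4 was 2.31-fold and 2.30-fold higher. At 6 h Adam12 and Timp2 were lower, at 0.361 and 0.467 of their PBS level. These were 2 of 17 members at 3 h, both higher, where 10.6% of all 10262 genes passed 2-fold (6.13% higher, 4.42% lower). At 6 h they were 2 higher and 2 lower, where 10.5% passed (7.13% higher, 3.34% lower). The share at 3 h is near the background; that at 6 h is above it but rests on 4 genes and has no test. In bulk RNA fewer cells of a type and less RNA per cell cannot be told apart. Neither part of the fusion alone put any of the 17 genes past 2-fold against PBS: FPP-1746 gave 0 at 3 h and 6 h, where 0.614% and 0.555% of all genes passed, and Omomyc gave 0, where 0.614% and 0.682% passed.

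Promoter sequences are shown for 3 members: Adamts1, the most strongly raised, Timp2, the inhibitor that was lower at 6 h, and Mmp13, a collagenase gene of a chromosome 9 cluster that was almost silent. The rule for printing a promoter asked for at least 2-fold in the same direction at both times, which Adamts1 and Adamts4 met, and Adamts4 had no promoter entry. Timp2 and Mmp13 were chosen after their values were seen. The sequences come from RefSeq on build GRCm38.p6, which is not the build of the table, and run from 250 bases before to 50 bases after the annotated start, read along the gene's strand. Capitals mark motif matches, searched on both strands, none of which overlaps another in these windows. For the factor AP-1 the letters searched were TGANTCA. For the cyclic AMP response element, CRE, they were TGACGTCA. The E-box bound by MYC and its relatives was searched as CACGTG. For the box that positions the start in many regulated genes, the letters were TATAAA. The GC box of SP-family factors was taken as GGGCGG.
Adamts1, chr16:85803064-85803363, minus strand: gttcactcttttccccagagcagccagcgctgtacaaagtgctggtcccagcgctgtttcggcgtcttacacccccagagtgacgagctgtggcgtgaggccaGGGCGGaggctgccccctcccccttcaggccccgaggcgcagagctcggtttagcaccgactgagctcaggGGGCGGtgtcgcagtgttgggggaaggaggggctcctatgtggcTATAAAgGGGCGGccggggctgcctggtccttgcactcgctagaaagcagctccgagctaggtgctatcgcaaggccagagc
Timp2, chr11:118355362-118355661, minus strand: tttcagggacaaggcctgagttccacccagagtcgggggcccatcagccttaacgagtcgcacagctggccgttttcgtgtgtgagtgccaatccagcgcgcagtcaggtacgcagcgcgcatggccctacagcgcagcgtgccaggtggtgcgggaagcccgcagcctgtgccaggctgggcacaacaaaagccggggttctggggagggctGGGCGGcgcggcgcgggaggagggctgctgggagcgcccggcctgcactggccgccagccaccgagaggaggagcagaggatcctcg
Mmp13, chr9:7272264-7272563, plus strand: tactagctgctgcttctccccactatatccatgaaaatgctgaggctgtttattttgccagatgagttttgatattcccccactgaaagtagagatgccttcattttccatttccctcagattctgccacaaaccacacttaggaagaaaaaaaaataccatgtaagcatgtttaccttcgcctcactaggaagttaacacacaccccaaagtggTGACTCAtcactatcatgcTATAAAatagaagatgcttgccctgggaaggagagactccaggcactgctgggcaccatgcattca

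The Adamts1 window held TATAAA at 32 bases before the start and GGGCGG at 147, 76 and 25 bases before it, and no AP-1, CRE or E-box match. The Timp2 window held 1 GGGCGG at 37 bases before the start. In Mmp13 the AP-1 motif began 35 bases and TATAAA 16 bases before the annotated start. A promoter entry was found for 48 of the 78 members, 11 of them among the 17 expressed members; Adam12 was without one. TGANTCA occurred in 10 of the 48 (20.8%) against 7.91% of 27025 promoters of the same length. Those 10 were Adam1b, Adam25, Adam29, Mmp1a, Mmp1b, Mmp3, Mmp7, Mmp10, Mmp13 and Mmp20, and none passed 0.0756 FPKM in any column. None of the 11 expressed members with a promoter held TGANTCA or TGACGTCA, which occurred in 4.35% and 3.42% of the promoters of all expressed genes. CACGTG was found in Adam10 alone among the 11, and in 10.9% of promoters of expressed genes. TATAAA was found in Adamts1 alone among the 11, and in 6.27% of promoters of expressed genes. GGGCGG was in all 11, and in 68.0% of promoters of expressed genes. A match describes the letters of this window and is not a binding site.

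ADAMTS genes carried the largest differences. Adamts1 encodes a secreted protease that cuts the proteoglycans versican and aggrecan, and the table places it in mm9 at chr16:85794073-85803360. At 3 h it was at 8.93 FPKM in PBS, 11.3 in Omomyc, 10.4 in FPP-1746 and 123 in the fusion. At 6 h the values were 8.01 in PBS, 15.0 in Omomyc, 12.3 in FPP-1746 and 48.7 in the fusion. The fusion column was thus far above the other 6 at both times, and higher at 3 h than at 6 h.

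The log2 ratio of Adamts1 over PBS was 3.64 at 3 h and 2.46 at 6 h, rank 38 and rank 65 from the top of 10262 genes. Against FPP-1746 it was 3.44 and 1.91, and against Omomyc 3.33 and 1.64, comparisons that share the fusion columns with those against PBS. Adamts1 also spread most among the columns without the fusion at 6 h, where Omomyc was 1.87 times PBS in FPKM. Its log2 ratio over PBS there was 0.83 for Omomyc and 0.56 for FPP-1746, short of 2-fold.

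Adamts4, which encodes an aggrecanase, is given at chr1:173180553-173190053. At 3 h it stood at 2.17 FPKM in PBS, 1.99 in Omomyc, 1.66 in FPP-1746 and 6.31 in the fusion, and at 6 h at 4.01, 3.83, 3.85 and 10.5 FPKM. The fusion column was the highest at each time, and the columns without it were higher at 6 h than at 3 h. The log2 ratio over PBS was 1.21 at 3 h and 1.20 at 6 h. With a pseudocount of 5 these ratios were 0.66 and 0.78, and at 3 h against the mean of both PBS columns 0.84, all short of 2-fold.

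Adamts14, which encodes a procollagen N-propeptidase, was the third expressed member of its family. It stood at 5.94 FPKM in PBS and 8.52 in the fusion at 3 h (log2 ratio 0.46), and at 6.59 and 4.56 FPKM at 6 h (-0.45), and passed 2-fold at neither time. Adamts7, just below the mean of 1 FPKM at 0.988, was at 0.860 and 1.44 FPKM at 3 h and at 1.11 and 1.21 FPKM at 6 h in PBS and the fusion. Adamts5, which encodes the other main aggrecanase, lies 55041 bases from Adamts1. It was at 0.201 FPKM in PBS and 0.462 in the fusion at 3 h, and at 0.365 and 0.686 FPKM at 6 h. Its levels are small beside those of its neighbour, and on the scale of FPKM + 1 its log2 ratios were 0.28 and 0.30. Adamts6 was at 0.413 FPKM in PBS and 0.961 in the fusion at 3 h, and at 0.446 and 0.769 FPKM at 6 h. Adamts10 was at 0.747 and 0.957 FPKM at 3 h and at 0.819 and 0.394 FPKM at 6 h, higher in the fusion at the first time and lower at the second. Adamts12 was at 0.510 and 0.501 FPKM at 3 h and at 0.738 and 0.280 FPKM at 6 h. These genes lie under the mean of 1 FPKM.

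**Figure D1:**
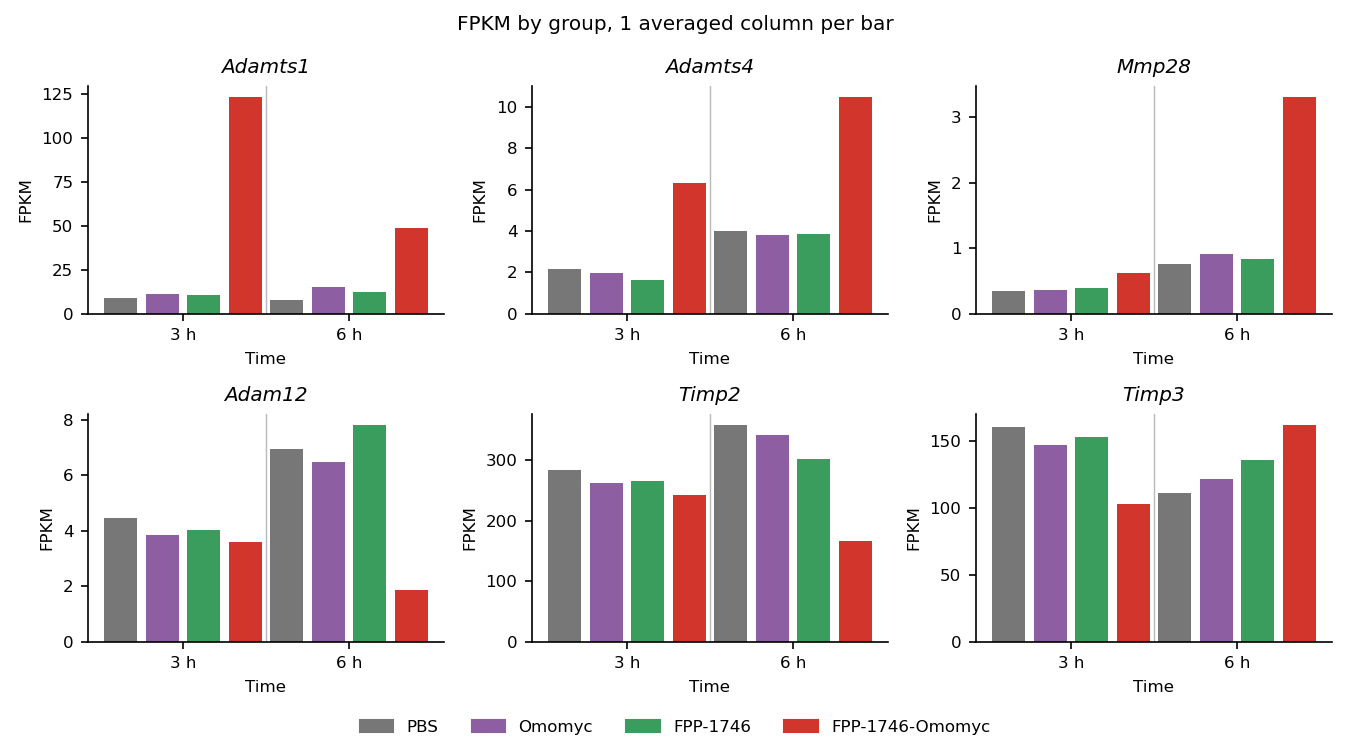
Levels of Adamts1, Adamts4, Mmp28, Adam12, Timp2 and Timp3 in FPKM (linear axis from 0), each bar a group mean coloured by treatment, with no error bars because replicates were averaged in the table. The fusion bars of Adamts1 reach 123 and 48.7 FPKM, while its other bars stay at or below 15.0 FPKM; Timp3 in the fusion is below the other bars at 3 h and above those of its time at 6 h.

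ADAM genes held the membrane sheddases, and Adam12 alone passed 2-fold. Adam12 encodes a protease that sheds ligands of the EGF receptor and lies at chr7:141074883-141416780. At 3 h it was at 4.45 FPKM in PBS, 3.86 in Omomyc, 4.04 in FPP-1746 and 3.61 in the fusion. The values at 6 h were 6.93, 6.48, 7.82 and 1.86 FPKM in the same order. The low column was thus the fusion at 6 h, while at 3 h the 4 columns lay close together. The log2 ratio over PBS was -0.24 at 3 h and -1.47 at 6 h, where Adam12 ranked 90 from the bottom. At 6 h it was -1.63 against FPP-1746 and -1.39 against Omomyc. With a pseudocount of 5 the ratio over PBS at 6 h was -0.80.

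Adam10 and Adam17, which encode the main sheddases of Notch and of TNF and EGF-family ligands, stayed close to PBS. Adam10 lay between 32.3 and 41.3 FPKM over all columns, with log2 ratios for the fusion of 0.05 at 3 h and -0.16 at 6 h. Adam17 lay between 16.6 and 19.6 FPKM, with ratios of 0.01 and -0.07. It shares its locus in the table with Iah1, so reads of the pair may be mixed. Adam8, a sheddase gene best known from leukocytes, was at 12.4 to 18.4 FPKM, with ratios of 0.02 and 0.05. None of these 3 genes came near 2-fold.

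Adam15 and Adam9 were the most abundant ADAM genes. Adam15, which encodes a disintegrin protease that binds integrins, was at 71.7 FPKM in PBS, 74.7 in Omomyc, 71.5 in FPP-1746 and 107 in the fusion at 3 h. At 6 h it was at 68.9, 70.6, 66.5 and 57.1 FPKM. The fusion column lay above the other columns at 3 h and below them at 6 h, with log2 ratios of 0.57 and -0.27. Adam9, another sheddase gene, was at 66.6 and 85.5 FPKM at 3 h in PBS and the fusion (0.36) and at 59.0 and 59.1 FPKM at 6 h (0.00). On chromosome 8 Adam9 lies within 1 Mb of Adam3, Adam5, Adam18 and Adam32, of which the highest value was 0.0367 FPKM.

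None of the 5 expressed MMP genes passed 2-fold. Mmp14 encodes the membrane-type protease MT1-MMP, which cuts collagen and activates proMMP2 with the help of TIMP2. It was at 52.5 FPKM in PBS, 53.9 in Omomyc, 54.7 in FPP-1746 and 52.7 in the fusion at 3 h, and at 64.0, 66.7, 71.6 and 48.8 FPKM at 6 h. The fusion column lay within the others at 3 h and below them at 6 h, with log2 ratios of 0.01 and -0.38. Mmp2, the gelatinase that Mmp14 activates, was at 10.9 FPKM in PBS, 11.9 in Omomyc, 12.9 in FPP-1746 and 18.4 in the fusion at 3 h (log2 ratio over PBS 0.71). At 6 h its 4 columns lay between 10.9 and 11.6 FPKM (-0.01 for the fusion).

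Mmp11, which encodes stromelysin-3, was at 9.32 FPKM in PBS, 8.49 in Omomyc, 8.78 in FPP-1746 and 9.98 in the fusion at 3 h. At 6 h the values were 13.2, 11.1, 10.6 and 10.6 FPKM, so the fusion was close to FPP-1746 alone. Mmp16, a further membrane-type gene, lay between 2.93 and 4.03 FPKM, lowest in the fusion at each time, with log2 ratios of -0.17 and -0.15. Mmp19 was at 1.29 FPKM in PBS and 1.83 in the fusion at 3 h and at 1.55 and 2.98 FPKM at 6 h (0.30 and 0.64). Its locus is shared with Tmem198b. It was the expressed member of lowest mean, 1.65 FPKM.

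Mmp28, which encodes epilysin, missed the mean of 1 FPKM at 0.944. It was at 0.348 FPKM in PBS, 0.365 in Omomyc, 0.396 in FPP-1746 and 0.627 in the fusion at 3 h. The 6 h values were 0.758, 0.909, 0.834 and 3.31 FPKM. The high column was the fusion at 6 h, with a log2 ratio over PBS of 1.30. Mmp9, the other gelatinase gene, had a mean of 0.792 FPKM and reached 1 FPKM in the fusion at 3 h (1.17) and in PBS at 6 h (1.08).

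The remaining genes were low or silent. Of the 61 members below a mean of 1 FPKM, 29 were listed at 0 in every column, 21 stayed below 0.1 FPKM, 8 lay between 0.1 and 1 FPKM at their highest, and Adamts7, Mmp28 and Mmp9 reached 1 FPKM in at least 1 column. The cluster of 10 Mmp genes on chromosome 9, from 7272514 to 7699416, held 7 genes at 0 throughout. Its highest value was 0.0756 FPKM, of Mmp13 in the fusion at 6 h. Genes of collagenases, stromelysins, matrilysin and the macrophage elastase lie here, and 7 of its 10 promoters held TGANTCA, 8 held TATAAA and 0 held GGGCGG. Timp4 was among the genes at 0.

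**Figure D2:**
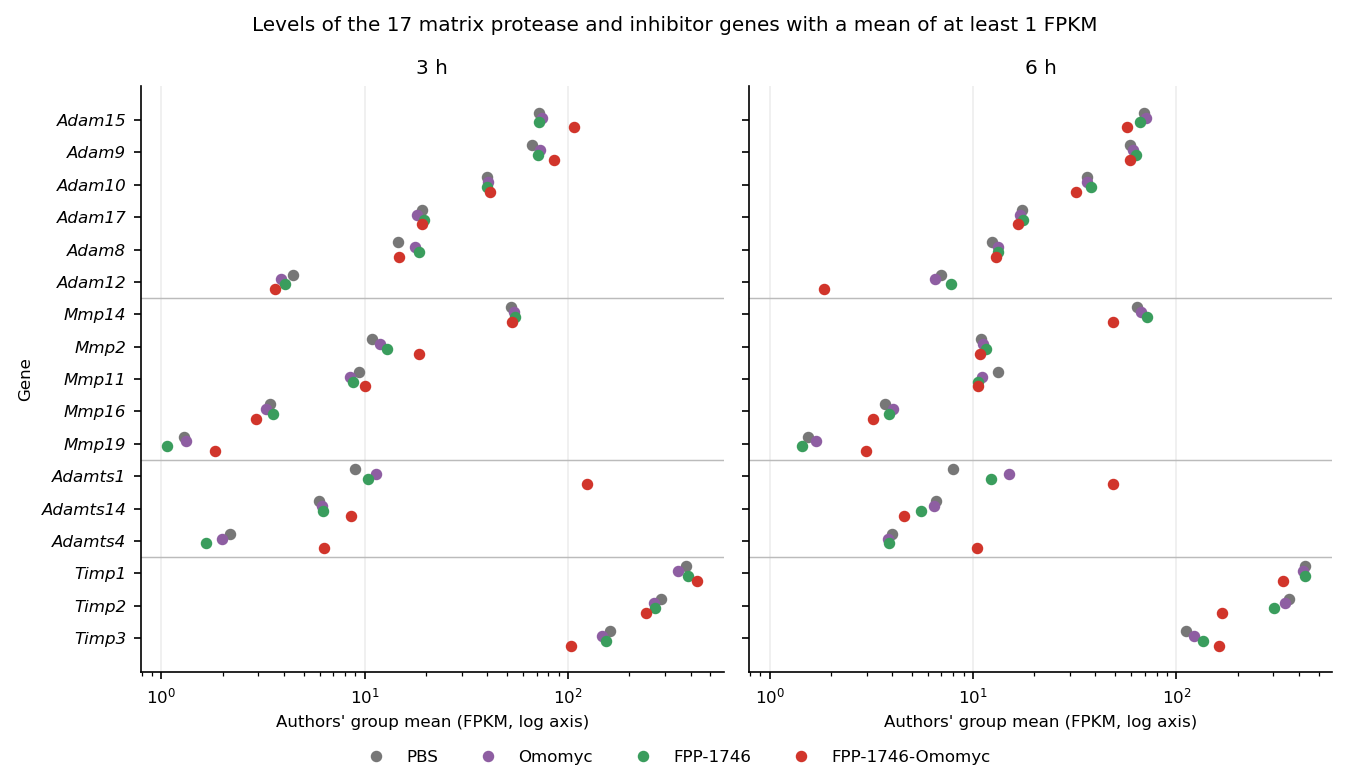
Levels in FPKM (log x axis) of the 17 expressed members (y axis, separated by family) at 3 h (left) and 6 h (right), each point a group mean coloured by treatment. Timp1, Timp2 and Timp3 lie at the right, above 100 FPKM, and the red points of the fusion stand apart most in Adamts1 and, at 6 h, in Adam12.

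TIMP genes were the most abundant members by FPKM, and Timp2 was lower in the fusion at 6 h. Timp2, at chr11:118162375-118216725, encodes the inhibitor that also links proMMP2 to MT1-MMP. At 3 h it was at 285 FPKM in PBS, 263 in Omomyc, 266 in FPP-1746 and 242 in the fusion. Its values at 6 h were 359, 342, 303 and 167 FPKM. The fusion column was the lowest at each time, with a clear gap only at 6 h. The log2 ratio over PBS was -0.23 at 3 h and -1.10 at 6 h, where it was -1.03 against Omomyc and -0.85 against FPP-1746, the last short of 2-fold. Against the mean of both PBS columns it was -0.94 at 6 h.

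Timp3, which encodes the matrix-bound inhibitor of ADAM17 and of aggrecanases, had log2 ratios of opposite sign at the 2 times and passed 2-fold at neither. At 3 h it was at 161 FPKM in PBS, 147 in Omomyc, 153 in FPP-1746 and 103 in the fusion. At 6 h it was at 112, 122, 136 and 162 FPKM. The fusion column was thus below the other 3 at 3 h and above them at 6 h. The log2 ratios over PBS were -0.64 and 0.54, a difference of 1.18. In PBS itself Timp3 was lower at 6 h than at 3 h (-0.53).

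Timp1, which encodes a secreted inhibitor of most MMPs, was the most abundant member. It was at 378 FPKM in PBS, 347 in Omomyc, 388 in FPP-1746 and 431 in the fusion at 3 h, and at 430, 419, 429 and 334 FPKM at 6 h. Its log2 ratios were 0.19 and -0.36, and under quantile normalisation the ratio at 3 h was -0.18, so its sign at 3 h depends on the scaling. The table gives Timp1 a locus shared with Araf and Syn1, Timp2 one with BC100451, and Timp3 one with Syn3 and 4930486F22Rik. Except for Araf, with a mean of 25.5 FPKM, these neighbours averaged at most 1.27 FPKM.

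**Figure D3:**
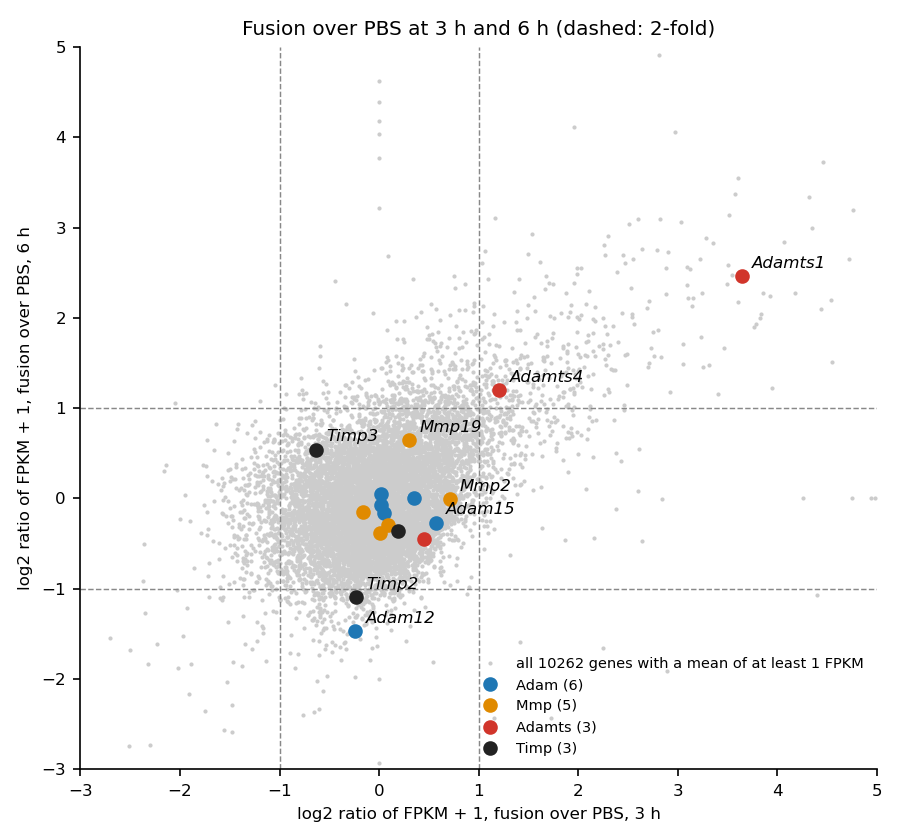
Log2 ratio of FPKM + 1 in the fusion over PBS at 3 h (x axis) and 6 h (y axis), for the 17 members coloured by family and for all 10262 expressed genes in grey (63 genes outside the axes are not drawn). Adamts1 and Adamts4 lie beyond 2-fold (dashed lines) at both times, Timp2 and Adam12 below it at 6 h, and the other 13 members inside it.

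Beyond the 2-fold rule, the members were set beside all genes by direction and size. The median log2 ratio of the 17 was 0.09 at 3 h and -0.15 at 6 h, beside 0.00 and -0.03 over all genes. By size alone, the median absolute ratio of the members was 0.24 and 0.36, beside 0.37 and 0.41 over all genes. At 3 h 10 members were above all 3 other columns of that time and 4 below, or 58.8% and 23.5%, where 46% and 45.9% of all genes were. At 6 h 4 were above and 11 below, or 23.5% and 64.7%, where 44% and 47.3% of all genes were. The column sum of the fusion was the highest of the 8 at 3 h and the lowest at 6 h. After rescaling of the columns by the median ratio, the same genes passed 2-fold at each time: Adamts1 and Adamts4 higher, and at 6 h Adam12 and Timp2 lower. The medians over all genes were already 0.00 and -0.03, so this rescaling moved the ratios little. It does not make the column sums equal.

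With the parts given alone, member ratios over PBS stayed short of 2-fold. They ran from -0.25 to 0.32 with FPP-1746 at 3 h and from -0.29 to 0.56 at 6 h. The range with Omomyc was from -0.16 to 0.31 at 3 h and from -0.24 to 0.83 at 6 h, the highest at 6 h being Adamts1 with each part. The median absolute ratio of the members with FPP-1746 was 0.078 at 3 h and 0.093 at 6 h, beside 0.059 and 0.065 over all genes. With Omomyc it was 0.113 and 0.059, beside 0.062 and 0.057. The members thus lay somewhat above all genes here, and this was not tested. Fusion against FPP-1746 gave Adamts1 and Adamts4 at 3 h, and these with Adam12 lower at 6 h, beside 9.87% and 10.1% of all genes. Fusion against Omomyc gave Adamts1 and Adamts4 at 3 h, and these with Adam12 and Timp2 lower at 6 h, beside 9.33% and 9.66%. These comparisons share the fusion columns. Between the PBS columns 0 of 17 members differed 2-fold, beside 0.867% of all genes; the largest of these ratios was that of Adamts4, 0.66 higher at 6 h.

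Summed over each family, TIMP transcripts outweighed protease transcripts in every column. FPKM is scaled to length, so within a column the sums compare transcript numbers. Between columns they are relative to the library, and the column totals differ. The sums say nothing of protein or activity. The Timp sum was 823 FPKM in PBS, 758 in Omomyc, 808 in FPP-1746 and 776 in the fusion at 3 h, and 901, 883, 867 and 664 FPKM at 6 h. The sum over all Mmp, Adam and Adamts genes was 315 FPKM in PBS and 502 in the fusion at 3 h, and 319 and 328 FPKM at 6 h. The ratio of the sums lay between 2.30 and 2.82 in the 6 columns without the fusion, and was 1.55 and 2.02 in the fusion at 3 h and 6 h.

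Adamts1 weighed heavily in that ratio. It made up 36.2% to 52.5% of Adamts FPKM without the fusion, and 86.5% and 72.5% with it. Without Adamts1 the ratio was 2.05 in the fusion at 3 h, below the other columns of that time (2.38 to 2.69), and 2.38 at 6 h, below 2.71 to 2.90. The Adam sum was 217 FPKM in PBS and 271 in the fusion at 3 h, and 201 and 180 FPKM at 6 h. The Mmp sum was 78.8 and 88.0 FPKM at 3 h and 95.5 and 80.7 FPKM at 6 h. Both family sums were therefore above PBS at 3 h and below it at 6 h. Sums over whole columns went the same way. They were 486989 FPKM in PBS and 594951 in the fusion at 3 h, and 468758 and 445657 FPKM at 6 h. The family sums were not rescaled for this, so no direction is read from them.

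**Figure D4:**
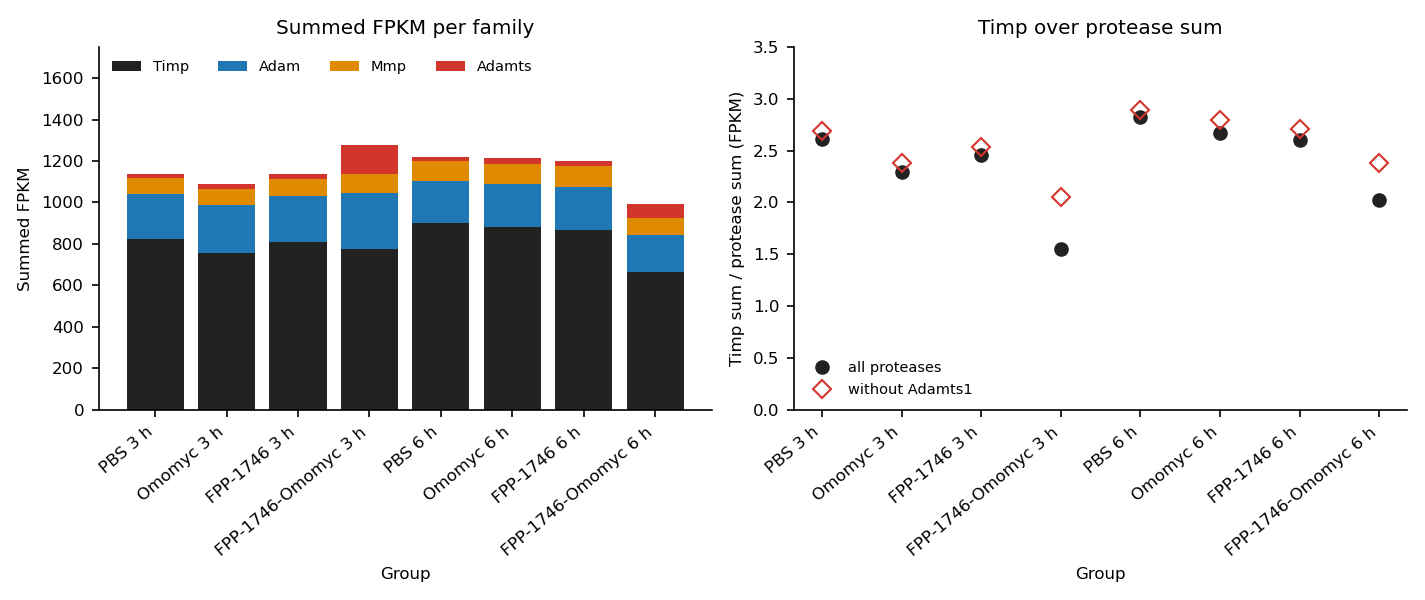
Left, summed FPKM of the Timp, Adam, Mmp and Adamts genes in each group, stacked; right, the Timp sum divided by the protease sum, with all proteases (black circles) and without Adamts1 (red diamonds). The black circles of the fusion lie at 1.55 and 2.02, below the range of 2.30 to 2.82 of the other columns.

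Genes that work around these proteases were taken from 4 lists, and their counts past 2-fold stand beside the same 10.6% and 10.5% of all genes. In plasminogen activation, the serine protease route that also activates MMPs, 1 of 5 genes was higher at 3 h and 1 at 6 h, with 0 lower and medians of 0.63 and 0.70. Plat, which encodes tissue plasminogen activator, was at 6.10 FPKM in PBS and 27.8 in the fusion at 3 h and at 5.59 and 18.4 FPKM at 6 h. The most abundant others, the plasminogen receptor genes Anxa2 and S100a10 and the urokinase receptor gene Plaur, did not pass 2-fold. At 3 h and 6 h the log2 ratios were 0.30 and 0.15 for Anxa2 and 0.92 and 0.70 for S100a10. For Plaur they were 0.56 and 0.89.

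Among other matrix-degrading enzymes 3 of 10 were higher at 3 h and 1 at 6 h, with none lower and medians of 0.81 and 0.38. The 3 encode lysosomal cathepsins. Ctsb was at 96.8 FPKM in PBS and 243 in the fusion at 3 h, Ctsd at 232 and 585 FPKM, and Ctsl at 314 and 665 FPKM. At 6 h Ctsd alone passed, at 252 and 556 FPKM. Cst3, which encodes the cathepsin inhibitor cystatin C, was at 305 and 586 FPKM at 3 h (log2 ratio 0.94), just short of 2-fold. Pcolce, which encodes an enhancer of procollagen processing, and Ctsz, another cathepsin gene, did not pass either.

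Regulators and relatives of metalloproteases had 1 of 12 genes higher at 3 h and 0 at 6 h, with 0 lower and medians of 0.28 and 0.06. The gene was Rhbdf2, which averaged 0.862 FPKM over the 6 columns without the fusion and so reached the mean of 1 FPKM only through the fusion columns; among the other 11 genes 0 passed, with medians of 0.25 and 0.02. Rhbdf2 encodes iRhom2, a protein that brings ADAM17 to the cell surface. It was at 0.449 FPKM in PBS and 4.20 in the fusion at 3 h and at 1.14 and 1.88 FPKM at 6 h. Bsg, which encodes the MMP inducer basigin, Furin, which encodes a convertase that removes metalloprotease propeptides, and Tspan5, which encodes a partner of ADAM10, were the most abundant others and did not pass. Reck, which encodes a membrane-anchored MMP inhibitor, was at no more than 0.163 FPKM.

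Of the substrates shed or cut by these enzymes 4 of 14 were higher at 3 h and 4 at 6 h, with 0 lower and medians of 0.39 and 0.61. The EGF receptor ligand Areg was at 2.43 FPKM in PBS and 37.6 in the fusion at 3 h and at 1.87 and 13.8 FPKM at 6 h. Ereg, another such ligand, was at 4.17 and 29.5 FPKM and at 2.17 and 11.1 FPKM. Hbegf was at 66.2 and 166 FPKM at 3 h and at 31.8 and 43.7 FPKM at 6 h, and passed at 3 h only. The Notch ligand Jag1 passed at both times (log2 ratios 1.66 and 1.52), and the hyaluronan receptor Cd44 at 6 h (1.05). Vcan, the versican substrate of ADAMTS1, was at 0.720 and 1.09 FPKM at 3 h and at 0.925 and 2.79 FPKM at 6 h, a log2 ratio of 0.98 at 6 h. It averaged 0.882 FPKM without the fusion and so counts among the 14 only through the fusion columns; the other 13 gave the same counts, with medians of 0.43 and 0.47. The other proteoglycan substrates Acan, Bcan and Ncan stayed near 0. Cx3cl1, a chemokine shed by ADAM10 and ADAM17, was at 104 FPKM in PBS and 70.6 in the fusion at 3 h and at 66.8 and 39.5 FPKM at 6 h, short of 2-fold. The most abundant other substrates, Sdc4 and Tnfrsf1a, did not pass.

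**Figure D5:**
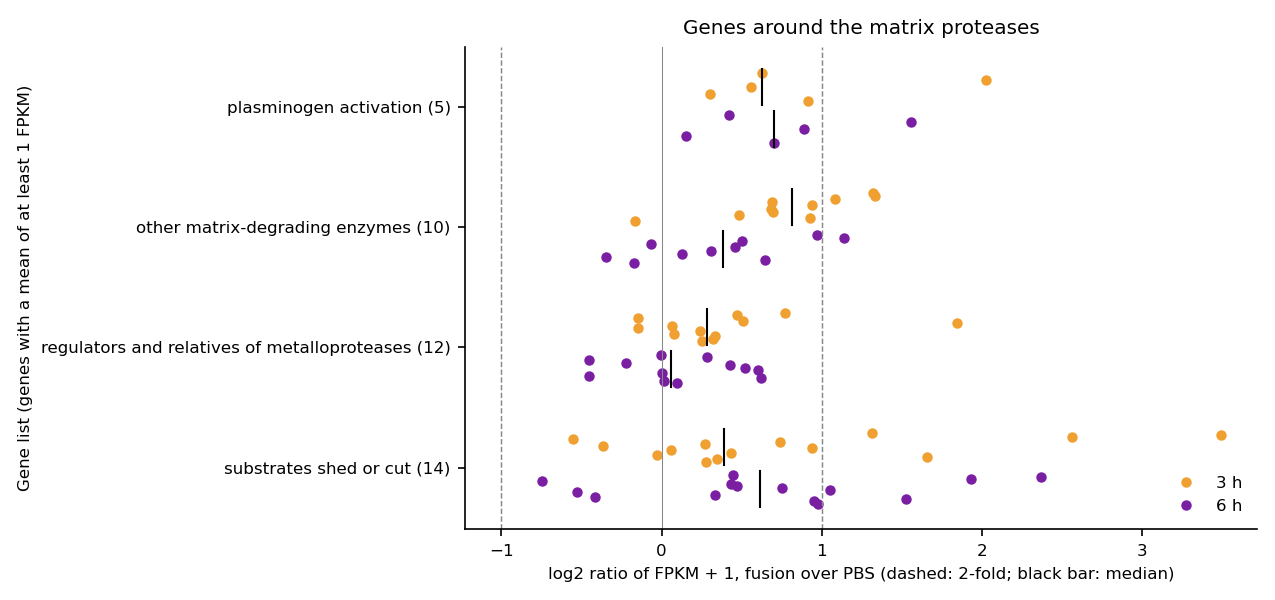
Log2 ratio of FPKM + 1 in the fusion over PBS for each expressed gene of the 4 lists around the matrix proteases, at 3 h (orange) and 6 h (purple), with the median of each list as a black bar. Medians lie between 0.06 and 0.81, and no point lies below the lower 2-fold line. Rhbdf2 and Vcan are drawn although they reach the mean of 1 FPKM only through the fusion columns. Without them the medians at 3 h and 6 h are 0.25 and 0.02 for regulators and relatives, and 0.43 and 0.47 for substrates.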

How the data were processed

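RNA-seq of T11 cells was analysed from 1 table of 8 group means in FPKM, made by the authors from 3 biological replicates each. Per the submitters' processing notes the tools were Cuffnorm 2.2.1, Cufflinks 2.2.1, STAR 2.1.3 and bcl2fastq 2.17.1.14, with build mm9. Settings, library scaling and strand use were not given in the sources used here, so overlapping genes cannot be told apart. Coordinates outside the promoter windows are the table's, in mm9. Starts were shifted to count from 1, since 7165 of 20649 spans equalled RefSeq spans when read from 0 and 456 when read from 1.

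Log2 ratios were taken of FPKM + 1, which understates changes of low genes, over the 10262 genes averaging 1 FPKM or more. Higher or lower means at least 2-fold on that scale. With 1 column per group no test was possible. The 2-fold rule was tested on simulated data, with changes set well past 2-fold and only in genes that were not low. That test does not cover ratios near the 2-fold limit or genes of low FPKM. The members, the 4 gene lists and the 6 marker lists were chosen with earlier results of these data known. 1 gene of the plasminogen list is not reported here and was left out of its counts. Every member averaging 1 FPKM or more is named. From each list, genes past 2-fold at either time and up to 3 of the most abundant others are named; Reck, Vcan, Acan, Bcan and Ncan were added after their values were seen, as were Adamts5, Adamts6, Adamts10 and Adamts12. TATAAA and GGGCGG were added to the motifs after values were seen. Protein sequences were planned and are not used here. The 3 samples titled as the fusion at 6 h carry a treatment tag of 3 h; the title and the column name were followed. Alternatives were the pseudocount, the filter, column scaling, the fold rule and the PBS reference. Computations used Python 3.11.15, pandas 2.3.3 and numpy 2.4.6.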

Additional observations from a re-analysis of the deposited data

Results flagged for a closer look

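Timp3, which encodes a matrix-bound metalloproteinase inhibitor, was lower in the fusion than in PBS at 3 h and higher at 6 h, which is why it is listed here. Its log2 ratios were -0.64 and 0.54, and the difference between them was 1.18. The difference was not tested, since each group is 1 averaged column. PBS itself went from 161 FPKM at 3 h to 112 FPKM at 6 h, while the fusion went from 103 to 162 FPKM. Against the mean of both PBS columns the log2 ratios were -0.40 and 0.25.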

How the results depend on the processing

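No paired analysis was possible because replicates were averaged within each column. For the same reason no replicate could be left out. With pseudocount 5 the counts of members changed to 1 higher at 3 h, and to 1 higher and 1 lower at 6 h, since Adamts4 (0.66 and 0.78) and at 6 h Adam12 (-0.80) fell short of 2-fold. With a mean of at least 5 FPKM the same counts held, as these genes were not kept. Under the 1.5-fold rule 1 member, Timp3, was lower at 3 h, and 3 were higher at each time, Mmp2 being added at 3 h and Mmp19 at 6 h. With the mean of both PBS columns as reference 1 member was higher at 3 h, as Adamts4 was at 0.84, and 1 lower at 6 h, as Timp2 was at -0.94. With no filter the median log2 ratio at 6 h was 0; 29 of the 78 members are at 0 in every column. Adamts1 passed under all 8 alternatives, from 3.20 to 3.77 at 3 h and from 2.05 to 2.59 at 6 h. With no filter Mmp28 also passed at 6 h. Over single genes, 256 of the recomputed values kept their side of the rule, 5 fell short of it and 3 newly passed. No called value changed sign. A change of filter does not alter a ratio, so the values under those settings are the same by construction. Genes that a filter dropped are not in this tally, so it overstates how firm the calls are. Ratios near 0 changed sign with the scaling or the reference in Adam8, Adam9, Adam17, Mmp2, Mmp11, Mmp14 and Timp1. Over all genes the counts at 3 h were 629 higher and 454 lower, against 381 and 154 with pseudocount 5, 759 and 704 with pseudocount 0.1, and 1612 and 1492 under the 1.5-fold rule. At 6 h they were 732 and 343, against 365 and 152, 934 and 512, and 1787 and 1564. With the mean of both PBS columns as reference they were 647 and 516 at 3 h, and 672 and 333 at 6 h. With a mean of at least 5 FPKM, which kept 8051 genes and 13 members, they were 496 and 373, and 540 and 304. With no filter, over 23235 genes, they were 641 and 457, and 751 and 347. Leaving the fusion columns out of the mean filter, an alternative chosen after seeing the data, took Rhbdf2 and Vcan out of the lists, so that regulators and relatives had 0 higher at 3 h in place of 1.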
